A study of Mus musculus with 4 samples.

Results

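The L1, NCAM and contactin adhesion proteins, with 1 neurexin, were followed here through 9 genes taken by symbol from the annotation of the array's probe sets, which named 19505 genes in all. They were the L1 family members L1cam, Chl1, Nrcam and Nfasc, the neural cell adhesion molecules Ncam1 and Ncam2, the contactins Cntn1 and Cntn2, and the neurexin Nrxn2. Each of the 9 genes had 1 probe set, so isoforms of a gene were not told apart. The cells were Neuro-2a, a neuroblastoma line of the albino mouse strain A that is often used as a model of neurons. They received 30 µM deltamethrin, a pyrethroid insecticide, in medium for 24 h, or the vehicle alone, which was 0.1% DMSO. Total RNA was read on Affymetrix Clariom S Mouse arrays, with 2 arrays of deltamethrin-treated cells and 2 arrays of vehicle-treated cells. The labels do not say whether arrays of a group came from separate cultures, so p-values measure the spread between these arrays, which may be technical.

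L1 family proteins, NCAMs and contactins carry immunoglobulin and fibronectin-like domains outside the cell and bind copies of themselves or each other across neighbouring membranes. L1 family proteins cross the membrane and anchor to ankyrin and spectrin below it, contactins are held by a lipid anchor and signal through partners, and NCAM1 is the main carrier of polysialic acid. In neurons they guide and bundle axons. Some L1 family proteins and contactins, the latter with contactin-associated proteins, help build the node of Ranvier and the regions beside it. Neurexins sit on the presynaptic side and bind neuroligins and other postsynaptic proteins.

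In 4 of the 9 genes the groups did not overlap, a share near the 43.9% of all probe sets, and the windows around the start sites of those genes are shown as the regulatory sequence beside the transcripts described most closely. Each is 300 bases, from 250 before to 50 after a start in RefSeq (GRCm38.p6), printed 5′ to 3′ on the gene's strand, and the window farthest upstream was taken where a gene had several. Capitals mark matches on either strand to GGGCGG, the letters of the GC box, or to the pentamer CCAAT. Further searches on both strands covered CACGTG, known as the E box, the cAMP response element TGACGTCA, the antioxidant response element core TGACNNNGC, the amino acid response element core TGATGNAA and the core promoter element TATAAA. None of these was present in the 4 windows, and no capital run was shared between motifs. The windows were Nrcam at chr12:44328635-44328934 on the plus strand, L1cam at chrX:73880785-73881084 on the minus strand, Cntn1 at chr15:92050915-92051214 on the plus strand and Nfasc at chr1:132707277-132707576 on the minus strand.
Nrcam: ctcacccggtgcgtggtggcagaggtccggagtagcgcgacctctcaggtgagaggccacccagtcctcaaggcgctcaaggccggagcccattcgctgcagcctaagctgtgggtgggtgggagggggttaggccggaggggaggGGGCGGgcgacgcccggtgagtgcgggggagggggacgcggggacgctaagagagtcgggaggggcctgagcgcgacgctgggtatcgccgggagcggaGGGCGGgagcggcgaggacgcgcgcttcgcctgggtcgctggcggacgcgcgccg
L1cam: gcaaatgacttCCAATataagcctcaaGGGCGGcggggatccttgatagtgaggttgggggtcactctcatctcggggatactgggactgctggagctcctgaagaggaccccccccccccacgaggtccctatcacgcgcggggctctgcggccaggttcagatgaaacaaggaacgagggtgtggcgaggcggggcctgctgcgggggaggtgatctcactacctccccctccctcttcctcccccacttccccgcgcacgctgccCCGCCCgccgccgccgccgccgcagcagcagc
Cntn1: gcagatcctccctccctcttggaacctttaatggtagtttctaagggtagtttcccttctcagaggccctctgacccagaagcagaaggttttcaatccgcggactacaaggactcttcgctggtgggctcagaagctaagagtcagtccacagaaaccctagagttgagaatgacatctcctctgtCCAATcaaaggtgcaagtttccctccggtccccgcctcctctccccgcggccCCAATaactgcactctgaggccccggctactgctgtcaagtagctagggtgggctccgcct
Nfasc: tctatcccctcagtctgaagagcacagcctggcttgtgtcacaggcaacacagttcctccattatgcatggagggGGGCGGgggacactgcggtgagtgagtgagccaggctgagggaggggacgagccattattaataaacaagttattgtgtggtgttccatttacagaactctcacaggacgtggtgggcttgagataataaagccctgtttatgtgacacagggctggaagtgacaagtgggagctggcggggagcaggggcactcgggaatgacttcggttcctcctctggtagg

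The Nrcam window held 2 GC boxes and had a GC content of 74.0%, and the L1cam window held 2 GC boxes and 1 CCAAT match at 67.0% GC. The Cntn1 window held no GC box and 2 CCAAT matches at 55.3% GC, and the Nfasc window held 1 GC box at 54.3% GC. The median GC content of all 32851 windows in the table was 52.7%. Of all windows, 35.7% held a GC box and 37.4% a CCAAT match, so neither is rare. The shares for the motifs missing from the 4 windows were 7.15% for the E box, 1.79% for the cAMP response element, 12.4% for the antioxidant core, 3.97% for the amino acid core and 13.6% for TATAAA. In all, 7 of the 9 genes matched the table, with 11 windows. Motifs absent from a gene's printed window occurred in another of its windows for Cntn1 (TATAAA) and Nfasc (CCAAT). These are letter matches, and the arrays did not measure the promoters.

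None of the 9 genes passed the test. In limma, at a Benjamini-Hochberg adjusted p below 0.05 over all probe sets, 0 of 9 were called, against 0.432% of all probe sets. At an unadjusted p below 0.05, limma gave 3 of 9 (Nrcam, L1cam and Cntn1), all with higher estimates in deltamethrin-treated cells, where the share of all probe sets with such a p was 13.7% in either direction and 6.83% on the higher and 6.84% on the lower side. The groups did not overlap for 4 of 9 genes, against 43.9% of all probe sets, so that count stood near the background. Deltamethrin arrays lay above vehicle arrays for 3 of 9 genes, against 20.3% of all probe sets, and below them for 1 of 9, against 23.5%. The median log2 difference, deltamethrin minus vehicle, was 0.03 over the 9 genes and -0.02 over all probe sets. Bulk RNA cannot tell fewer cells with a transcript from less of it in each cell.

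**Figure D1:**
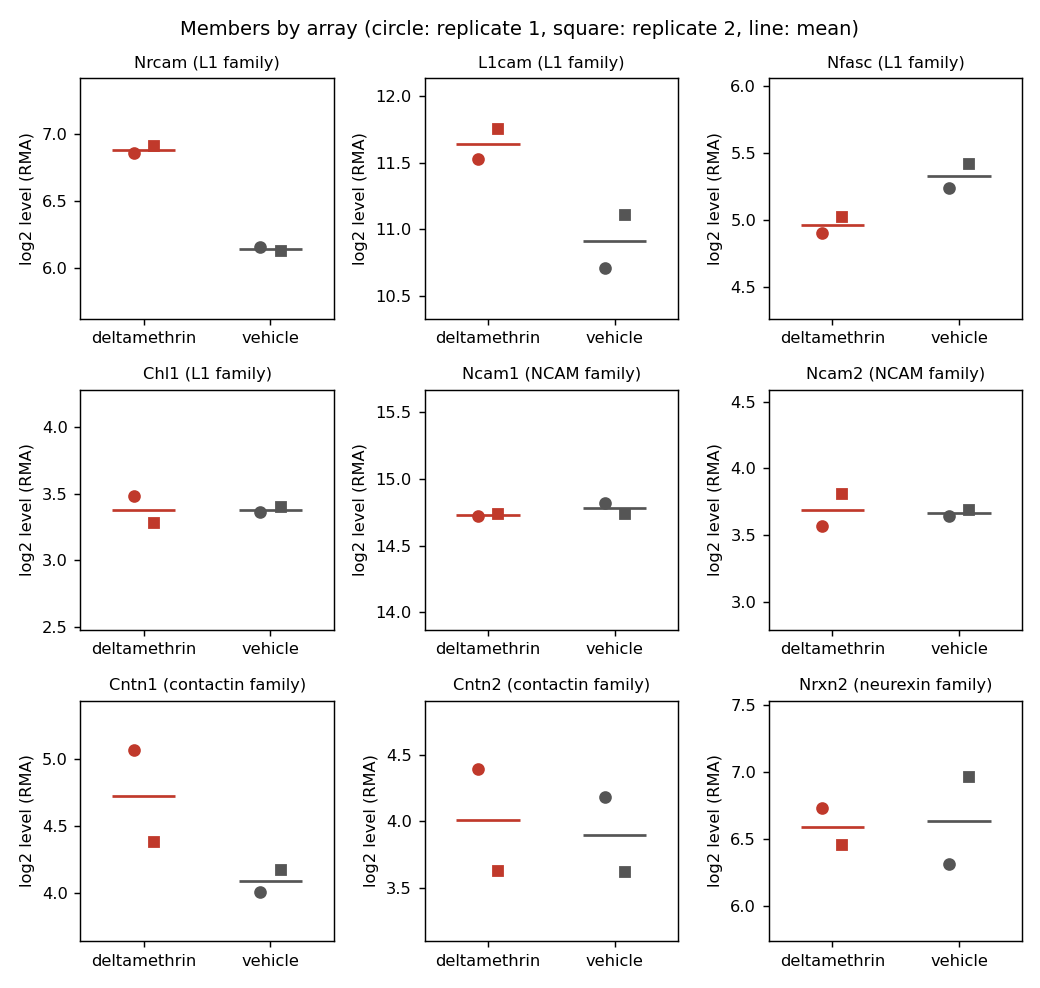
Log2 level (RMA) of each of the 9 genes on each array, with deltamethrin left and vehicle right in every panel (circle, replicate 1; square, replicate 2; line, group mean; every vertical axis spans the same log2 range). Both deltamethrin arrays lie above both vehicle arrays for Nrcam, L1cam and Cntn1 and below them for Nfasc, and the groups overlap for the other 5 genes.

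Within the L1 family, Nrcam and L1cam had the higher estimates. Nrcam, which encodes the neuronal cell adhesion molecule of axon guidance and the node of Ranvier, lies on chromosome 12. Its log2 level was 6.86 and 6.91 on the deltamethrin arrays, against 6.16 and 6.13 on the vehicle arrays. Both deltamethrin arrays were higher, and arrays of a group lay close together. The log2 difference was 0.74 ± 0.16 (SE, n = 2 per group, 95% interval 0.35 to 1.13, limma adjusted p = 0.147), which is 1.67-fold. The 4 array-to-array differences ran from 0.70 to 0.78.

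L1cam, on chromosome X, encodes the founding member of the family, a promoter of neurite outgrowth and axon bundling. It read 11.53 and 11.75 on the deltamethrin arrays, against 10.71 and 11.11 on the vehicle arrays. The groups did not overlap, and the vehicle arrays were farther from each other than the deltamethrin arrays were. The log2 difference was 0.73 ± 0.21 (SE, n = 2 per group, 95% interval 0.24 to 1.22, limma adjusted p = 0.218), or 1.66-fold. With a variance that was allowed to follow the level (a mean-variance trend), L1cam was called (limma adjusted p = 0.0481), while Nrcam was not (adjusted p = 0.124). Under that trend 3.63% of all probe sets were called, with 2.25% on the higher and 1.38% on the lower side.

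Nfasc, on chromosome 1, encodes neurofascin, which organises the axon initial segment and node from the neuronal side and the paranode from the glial side. Its levels were 4.90 and 5.02 with deltamethrin and 5.24 and 5.42 with vehicle. Both deltamethrin arrays were the lower ones, opposite to Nrcam and L1cam. The log2 difference was -0.37 ± 0.17 (SE, n = 2 per group, 95% interval -0.78 to 0.04, limma adjusted p = 0.410). Array-to-array differences for Nfasc ran from -0.52 to -0.22 and did not meet the range for Nrcam or that for L1cam, which was 0.42 to 1.04. This difference between family members was not tested.

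Chl1, on chromosome 6, encodes the close homolog of L1, which acts in neuronal migration. It read 3.48 and 3.28 with deltamethrin and 3.36 and 3.40 with vehicle. The vehicle values lay between the deltamethrin values, and the log2 difference was 0.00 ± 0.17 (SE, n = 2 per group, 95% interval -0.41 to 0.41). Both group means of Chl1 and of Nfasc lay below 5.60, the median level over all probe sets, and the table gives no detection call, so it is not known whether such dim values stood above background.

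The NCAM genes showed small differences. Ncam1, on chromosome 9, read 14.72 and 14.74 with deltamethrin and 14.82 and 14.74 with vehicle. One value occurred in both groups, and the log2 difference was -0.05 ± 0.16 (SE, n = 2 per group). Its 95% interval of -0.44 to 0.34 corresponds to 0.736-fold to 1.27-fold, so a change of the size estimated for Nrcam lay outside it. Ncam2, on chromosome 16, is known for its role in olfactory axons. It read 3.57 and 3.81 with deltamethrin and 3.64 and 3.69 with vehicle, overlapping and dim in both groups, with a log2 difference of 0.03 ± 0.18 (SE, n = 2 per group, 95% interval -0.40 to 0.45).

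**Figure D2:**
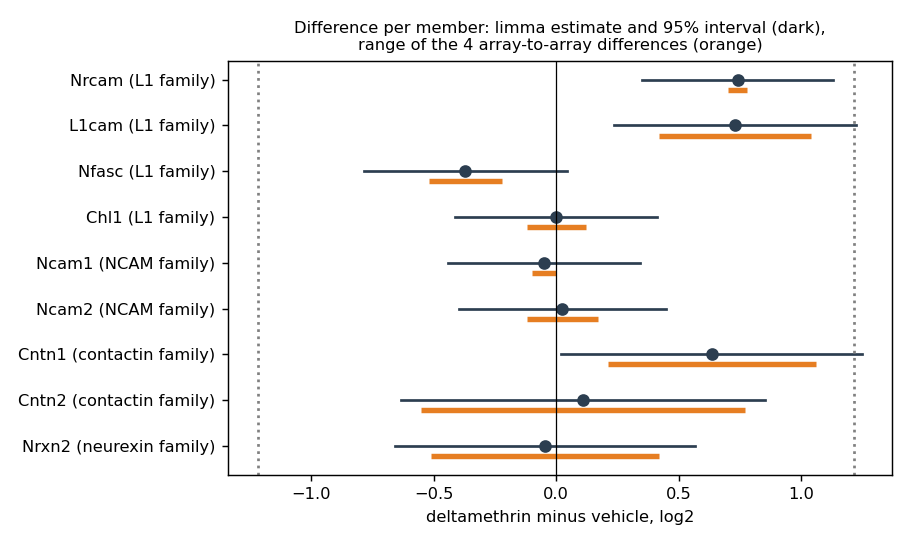
Difference in log2 level, deltamethrin minus vehicle, for each of the 9 genes (point, limma estimate; dark line, its 95% interval; orange bar, lowest to highest of the 4 array-to-array differences; dotted lines, the smallest absolute difference called among all probe sets, 1.22). The intervals of Nrcam, L1cam and Cntn1 lie above 0, and the point estimates of all 9 genes fall inside the dotted lines.

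Of the contactins, Cntn1 was higher by its estimate but with a wide spread. Cntn1, on chromosome 15, encodes contactin-1, the partner of CASPR on the axonal side of the paranode. It read 5.07 and 4.38 with deltamethrin and 4.01 and 4.17 with vehicle. The groups did not overlap, although deltamethrin replicate 2 stood nearer to the vehicle arrays than to deltamethrin replicate 1. The log2 difference was 0.63 ± 0.25 (SE, n = 2 per group, 95% interval 0.02 to 1.25, limma adjusted p = 0.352). Without deltamethrin replicate 1 it was 0.29, and without deltamethrin replicate 2 it was 0.98. Both group means lay below the median of all probe sets.

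Cntn2, on chromosome 1, encodes TAG-1 (contactin-2), which acts at the juxtaparanode with CASPR2. It read 4.39 and 3.63 with deltamethrin and 4.18 and 3.62 with vehicle. Replicate 1 was the higher array in both groups, and the spread within a group exceeded the log2 difference of 0.11 ± 0.31 (SE, n = 2 per group, 95% interval -0.63 to 0.85). Cntn2 and Nfasc are neighbours in the RefSeq annotation of GRCm38.p6, with no protein-coding gene between them.

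Nrxn2, on chromosome 19, encodes a presynaptic neurexin. It read 6.73 and 6.45 with deltamethrin and 6.31 and 6.96 with vehicle. The deltamethrin values lay between the vehicle values, and the log2 difference was -0.05 ± 0.25 (SE, n = 2 per group, 95% interval -0.66 to 0.57). The interval is wide enough to hold differences as large as 0.5 in either direction, so the arrays do not show that Nrxn2 stayed level.

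Measured against the whole array, 2.62% of probe sets had a higher estimate than Nrcam, 2.71% a higher one than L1cam and 3.81% a higher one than Cntn1. The smallest fold called among all probe sets was 2.32, which is larger than the 1.67-fold of Nrcam. No probe set with an estimate as small as those of the 9 genes was called in this fit. The standard errors of the 9 genes ran from 0.16 to 0.31, against a median of 0.19 over all probe sets.

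Genes that act with these adhesion proteins were counted in 9 lists of partners. Of 137 listed genes 130 were measured, and 0 were called in limma over all probe sets. At an unadjusted p below 0.05 there were 25, or 19.2%, of which 12 were higher and 13 lower, where the share of all probe sets was 13.7%. Their median log2 difference was -0.07. With a mean-variance trend 4 were called, or 3.08%, near the 3.63% of all probe sets. They were Fyn, Mcam and Nectin2, which were higher, and Dag1, which was lower.

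**Figure D3:**
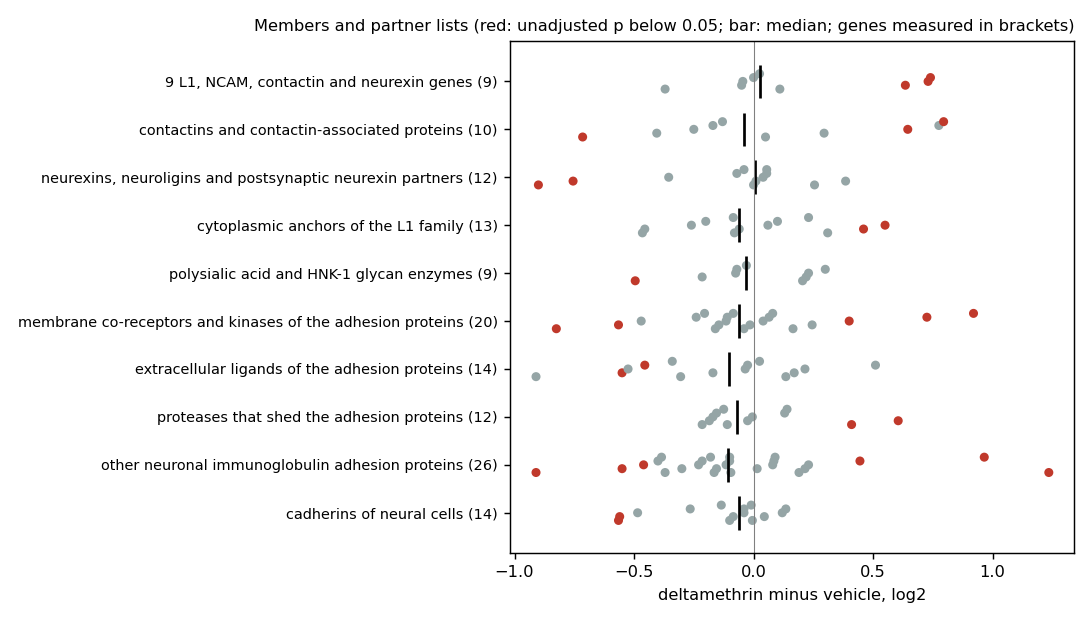
Difference in log2 level, deltamethrin minus vehicle, of the 9 genes and of each gene in the 9 partner lists (red, unadjusted p below 0.05 in limma; grey, other genes; black bar, median of the list). Medians lie between -0.11 and 0.03, and red points stand on both sides of 0 for the contactin, co-receptor and immunoglobulin lists.

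Partners of the contactins differed in direction by estimate. In the list of other contactins and contactin-associated proteins 0 of 10 were called, with 2 higher and 1 lower at an unadjusted p below 0.05. That is 30% of the list, against 13.7% of all probe sets. Cntnap1, which encodes CASPR, read 7.15 and 6.73 with deltamethrin and 6.15 and 6.14 with vehicle, a log2 difference of 0.80 ± 0.20 (SE, n = 2 per group, limma adjusted p = 0.187). Cntnap2, which encodes CASPR2, read 4.0 and 3.54 with deltamethrin and 4.65 and 4.32 with vehicle, a log2 difference of -0.71 ± 0.23 (limma adjusted p = 0.261). The estimates for Cntnap1 and its partner Cntn1 were both above 0, while that for Cntnap2 was below 0 and that for its partner Cntn2 was 0.11, and none of these 4 genes was called. Cntnap5b was at 0.65 ± 0.17, and Cntnap2, Cntnap5b, Cntn1 and Cntn2 were dim in both groups. The remaining contactins Cntn3, Cntn4, Cntn5 and Cntn6 had log2 differences of -0.13, 0.29, -0.41 and -0.25. All of these but Cntn3 were dim in both groups.

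Among proteins that anchor the L1 family from inside the cell, 0 of 13 were called. The ERM protein moesin, Msn, read 12.17 and 11.98 with deltamethrin and 11.61 and 11.62 with vehicle (log2 difference 0.46 ± 0.17, limma adjusted p = 0.320). Among the ankyrins, which bind L1 family tails, Ank2 was at 0.55 ± 0.23 (limma adjusted p = 0.359), or 0.30 without deltamethrin replicate 2. Ank3, the ankyrin of the axon initial segment and node, was at -0.46 ± 0.23 (adjusted p = 0.443), and Ank1 was at -0.08 ± 0.21 with overlapping groups. Dcx, the microtubule protein doublecortin, was at -0.46 ± 0.21. Both Dcx and Ank1 were dim in both groups.

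In the list of co-receptors and kinases 0 of 20 were called. Nrp2, the neuropilin that joins NRCAM in a semaphorin receptor, read 8.24 and 7.92 with deltamethrin and 6.91 and 7.41 with vehicle, a log2 difference of 0.92 ± 0.23 (SE, n = 2 per group, limma adjusted p = 0.187). Fyn, a Src-family kinase downstream of NCAM and contactin, read 10.86 and 11.02 with deltamethrin and 10.06 and 10.37 with vehicle, a difference of 0.73 ± 0.19 (adjusted p = 0.193). Neither gene's groups overlapped. The semaphorin receptor subunit Plxna4 was at -0.83 ± 0.23 (adjusted p = 0.211).

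For neurexin partners, 0 of 12 were called and the 2 genes at an unadjusted p below 0.05, Dag1 and Lrrtm3, both had lower estimates. Those 2 genes were 16.7% of the list, against 13.7% of all probe sets in either direction and 6.84% on the lower side. Dag1, which encodes the neurexin-binding receptor dystroglycan, read 11.97 and 11.73 with deltamethrin and 12.42 and 12.79 with vehicle (log2 difference -0.76 ± 0.20, limma adjusted p = 0.202). Lrrtm3, a postsynaptic neurexin ligand, was at -0.90 ± 0.23 (adjusted p = 0.192) and Nrxn3 at 0.38 ± 0.19. Nrxn3 was dim in both groups.

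Ligands, glycan enzymes and sheddases held 0 calls in 14, 9 and 12 measured genes. Among ligands, the growth factor pleiotrophin, Ptn, was at -0.55 ± 0.17 (limma adjusted p = 0.247). The proteoglycan genes Ncan and Vcan were at -0.46 ± 0.17 and -0.91 ± 0.39, and the Vcan value was -0.30 without deltamethrin replicate 1 and -1.52 without deltamethrin replicate 2. St8sia3, a sialyltransferase, was at -0.50 ± 0.17 (adjusted p = 0.282), while Gne and B3gat2 were at 0.30 ± 0.21 and 0.23 ± 0.17. Without vehicle replicate 1 Gne was at 0.06, and without deltamethrin replicate 2 B3gat2 was at 0.11. St8sia2 and St8sia4, the polysialyltransferases of NCAM1, were dim in both groups, as was B3gat2. The protease gene Plat was at 0.60 ± 0.19 (limma adjusted p = 0.267), the gamma-secretase subunit gene Psen2 at 0.41 ± 0.16 and Mmp2 at -0.18 ± 0.16. Mmp2 was dim in both groups.

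Other adhesion proteins of the immunoglobulin class included the largest partner difference. Nectin2 read 8.70 and 9.04 with deltamethrin and 7.32 and 7.95 with vehicle, a log2 difference of 1.23 ± 0.26 (SE, n = 2 per group, limma adjusted p = 0.139). Nectin1 went the other way, with 5.77 and 5.93 in deltamethrin-treated cells against 6.86 and 6.66 in vehicle-treated cells, a difference of -0.91 ± 0.18 (adjusted p = 0.125). Mcam was at 0.97 ± 0.23 (adjusted p = 0.176). In this list 0 of 26 were called, with 3 higher and 3 lower at an unadjusted p below 0.05. That is 23.1% of the list, against 13.7% of all probe sets. Among cadherins 0 of 14 were called, with Cdh2 (N-cadherin) at -0.57 ± 0.17, Cdh8 at -0.56 ± 0.17 and Celsr1 at -0.27 ± 0.17. Cdh8 and Celsr1 were dim in both groups.

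The label of the cells was set against markers. Of 18 measured neuronal and neuroblastoma markers, 16 exceeded the level median of all probe sets in at least 1 group mean. The same held for 0 of 7 astrocyte, 1 of 6 oligodendrocyte and Schwann cell, 0 of 7 fibroblast and 1 of 7 microglia and macrophage markers. These lists of other cell types held 0 calls in limma, and 1 astrocyte and 1 microglial marker had an unadjusted p below 0.05, both with lower estimates. Of the neuronal markers 0 were called in limma, and an unadjusted p below 0.05 was found for 2 higher and 7 lower ones, 50% of the list against 13.7% of all probe sets. With the mean-variance trend 3 of the 18 were called, against 3.63% of all probe sets. Isl1 and the granin gene Chgb were called as lower and Prph as higher. The summed log2 level of all 18 measured neuronal markers was 205.9 and 202.5 on the deltamethrin arrays and 209.2 and 209.1 on the vehicle arrays. Isl1, a transcription factor of sympathetic neurons, had a log2 difference of -1.14 ± 0.17 (limma adjusted p = 0.0740). The intermediate filament gene Prph was at 0.63 ± 0.17 and Th, the first enzyme of catecholamine synthesis, at 0.90 ± 0.27. Prph and Th were the 2 higher ones at an unadjusted p below 0.05. The 7 lower ones were Isl1, Chgb, Map2, Elavl4, Phox2a, Chga and Dbh, with Dbh at -1.26 ± 0.47. The part of these markers in the values of the adhesion genes was not tested. Batches were not labelled in the sources used here, so a batch effect cannot be told apart from the treatment.

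**Figure D4:**
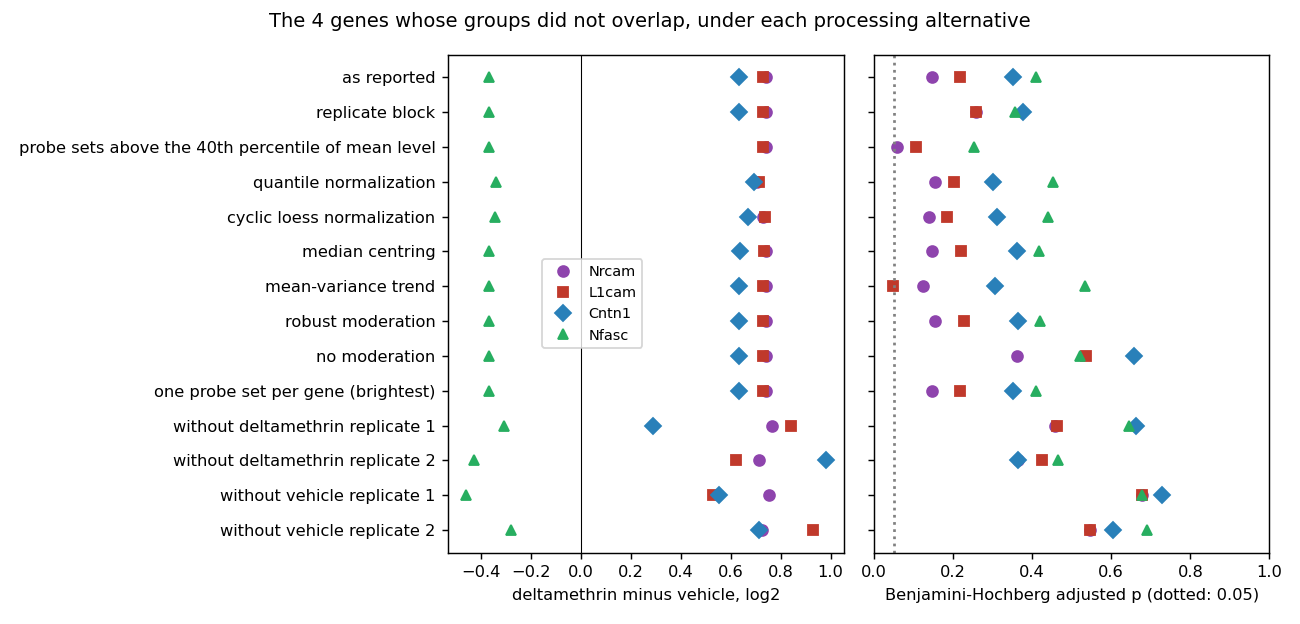
Log2 difference, deltamethrin minus vehicle (left), and limma adjusted p (right) of Nrcam, L1cam, Cntn1 and Nfasc under each processing alternative. The estimates keep their side of 0 in every setting shown, but most settings could not have changed it. The groups of these genes do not overlap, so leaving out an array could not change the sign. Settings that alter only the variance model or the probe sets tested leave the estimate as it was. Quantile, cyclic loess and median scaling could have changed the side of 0, and did not. L1cam under the mean-variance trend is the single point left of the dotted line at 0.05. Cntn1 has no point under the filter on dim probe sets, which removed it.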

How the data were processed

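Deposited values were on a log2 scale, 1 per probe set and array with 2 decimals, made by the authors with RMA and Transcriptome Analysis Console (both named in the submitters' processing notes), with versions not given in the sources used here. RMA aligns the arrays, whose medians lay between 5.60 and 5.63, so a shift shared by most genes would not show. Of 22206 probe sets 19572 had 1 symbol, and 2634 were unnamed here. RNA integrity numbers above 9 were required, per the labels' protocols.

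Deltamethrin minus vehicle was fitted with limma 3.58.1 in R 4.3.3 (lmFit and eBayes, no trend, no block, 2 residual and 4.43 prior degrees of freedom), two-sided, adjusted over all probe sets. The fit was tested on simulated data. Precision is limited by the number of arrays.

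The 9 genes, the lists and the tests were chosen with earlier results of these data known. Named were the 9 genes and, from each list, called genes or up to 3 of smallest p. Ank1, Ank3, Chga, Chgb, Cntn3, Cntn4, Cntn5, Cntn6, Dbh, Elavl4, Map2, Phox2a, St8sia2 and St8sia4 were named after their values were seen. A gene with several probe sets in a list was read by its brightest. Alternatives were a replicate block, a filter at the 40th percentile of level, quantile, cyclic loess and median scaling, a mean-variance trend, robust and no moderation, 1 probe set per gene, and each array left out.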

Additional observations from a re-analysis of the deposited data

How the results depend on the processing

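The count of the 9 adhesion genes called was 0 in every alternative that kept all arrays, except the mean-variance trend, where it was 1 (L1cam). Partner genes called numbered 4 with that trend and 1 (Nectin1, adjusted p = 0.0489) without dim probe sets. A fit with an array left out keeps 1 array in a group, so only its estimates are given. The estimates ranged, with 1 array left out, from 0.71 to 0.77 for Nrcam, 0.53 to 0.93 for L1cam, 0.29 to 0.98 for Cntn1, -0.46 to -0.28 for Nfasc, -0.10 to 0.10 for Chl1 and -0.09 to -0.01 for Ncam1. Those of Ncam2 (-0.10 to 0.14), Cntn2 (-0.27 to 0.49) and Nrxn2 (-0.37 to 0.28) changed sign. Among named partners, leaving out 1 array moved the estimates of Vcan (-1.52 to -0.30), Ank2 (0.30 to 0.80), Gne (0.06 to 0.54), B3gat2 (0.11 to 0.35), Nrxn3 (0.23 to 0.54), Dcx (-0.70 to -0.23), Plxna4 (-1.11 to -0.54) and Celsr1 (-0.36 to -0.16) by over 1.5 times. The groups of these partners, and those of Nrcam, L1cam, Cntn1 and Nfasc, did not overlap. Leaving out 1 array could therefore not change the sign of their estimates. Over the whole array, calls numbered 96 as reported, 806 with the trend, and 0 with a replicate block and without moderation. With dim probe sets filtered out there were 312 calls among the 13320 probe sets tested. Array replicate numbers are shared between groups, but nothing in the labels says that a number marks a shared culture or day. The deviations of same-numbered arrays correlated at 0.13. With the replicate block 0 of the 9 genes and 0 partners were called, Nrcam and L1cam both at an adjusted p of 0.257. The signal of Chl1, Nfasc, Ncam2, Cntn1 and Cntn2 was below the array median in both groups, which limits what their estimates can show. The cause of these shifts was not tested.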

Other observations

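Some genes outside the adhesion families had array patterns very close to those of Nrcam and L1cam. Likeness was measured as the Euclidean distance between log2 values over the 4 arrays, after subtraction of each gene's own mean. Probe sets without a symbol and predicted or clone-based symbols, such as those with Gm or Rik, were left out. For Nrcam the 3 nearest genes were Gch1, the first enzyme of tetrahydrobiopterin synthesis (distance 0.042), the RNA helicase Ddx25 (0.043) and the ribosomal protein paralogue Rpl22l1 (0.043), whose log2 differences, deltamethrin minus vehicle, were 0.75, 0.72 and 0.70. Gch1 read 13.54 on both deltamethrin arrays and 12.79 on both vehicle arrays. For L1cam the nearest were Prkg1, the cyclic GMP-dependent kinase (distance 0.036), the lysosomal membrane protein Glmp (0.052) and the ubiquitin-conjugating enzyme Ube2h (0.054), with differences of 0.75, 0.78 and 0.74. None of these 6 genes was called (limma adjusted p from 0.143 to 0.207). That follows from their choice by likeness to Nrcam and L1cam, which were not called in the same fit. With 4 arrays and many genes, close patterns are common, so the likeness is given as a description.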
